A study of Mus musculus with 12 samples.

Results

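WM-8014 was compared with WM-2474 after 240 h of treatment in mouse embryonic fibroblasts, by sequencing poly(A) RNA. The comparison takes 6 of the 12 libraries of the series, 3 cultures with each compound, and covers every gene that could be tested. The label of WM-8014 is an inhibitor of MYST enzymes, and that of WM-2474 an inactive control. Both were given at 10 µM. The cells were wild type, of strain C57BL/6, taken from embryos at E13.5 and grown in medium with 10% serum under 3% oxygen. No untreated or vehicle culture was analysed here, so each value sets 1 compound against the other. The other 6 libraries hold the same compounds at 96 h and were used for the shared estimate of spread and for the change of effect with time. The cultures are numbered 5, 6 and 7 with each compound and are called biological replicates by the series design. The labels do not say whether a number marks cells of 1 embryo.

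KAT6A and KAT6B are histone acetyltransferases of the MYST family. They work in complexes with a BRPF scaffold, ING4 or ING5 and MEAF6, and are known for keeping developmental genes active and for holding back senescence. Senescent fibroblasts leave the cell cycle for good. The INK4 proteins of the Cdkn2a and Cdkn2b genes then block the cyclin D kinases, RB proteins stay active, and genes driven by E2F factors are shut down. Lamin B1 is typically lost, lysosomes expand and secretion changes.

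The labels give the sex as female. Against this, Y-linked transcripts were found in each of the 6 libraries, with Ddx3y at 106 to 124, Eif2s3y at 62.9 to 77.7, Kdm5d at 27.6 to 31.8 and Uty at 27.6 to 32.8 CPM (reads of a gene per 1e6 reads of the library, TMM-scaled), and Xist had at most 3 reads. The label of sex is therefore not used here. Library totals were 19252762, 23521441 and 21071010 reads with WM-2474 and 10659860, 31180476 and 18609403 with WM-8014. The 20 most abundant genes took 11.64 to 11.94% of the reads with WM-2474 and 12.64 to 12.86% with WM-8014. The first principal component of the 6 libraries held 75.6% of the variance and separated the compounds, and the second held 8.5%. Of 14 fibroblast markers, 7 did not pass the test described below. Among these, Col1a1 was at 18782 to 19932 CPM with WM-2474 and 19343 to 20011 with WM-8014, and Thy1 at 1648 to 1717 and 1524 to 1678 CPM in turn. Lum, Fap, Pdgfra, Twist1 and Twist2 fell, 2 of these by at least 2-fold, and S100a4 and Vim rose. The share of these markers that changed was thus 50%, against 42.6% of all genes.

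Of 14136 genes tested, 2996 (21.2%) were higher and 3031 (21.4%) lower with WM-8014, at a Benjamini-Hochberg adjusted p under 0.05 in edgeR's quasi-likelihood test, which gives every adjusted p below. Together these 6027 genes were 42.6% of those tested, so a list with about that share of changed members does not stand out from the background. Most changes were small. Among the genes that passed, 4399 (73%) differed by less than 1.5-fold, and 237 rose and 473 fell by at least 2-fold. Changes of at least 4-fold were found in 21 genes that rose and 68 that fell. The median log2 fold change of all genes tested was 0.01. Where groups are said below to lie apart or not to overlap, this describes the values of that gene only. The share of all genes without overlap is not given here, so it does not set a gene apart from the background.

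**Figure D1:**
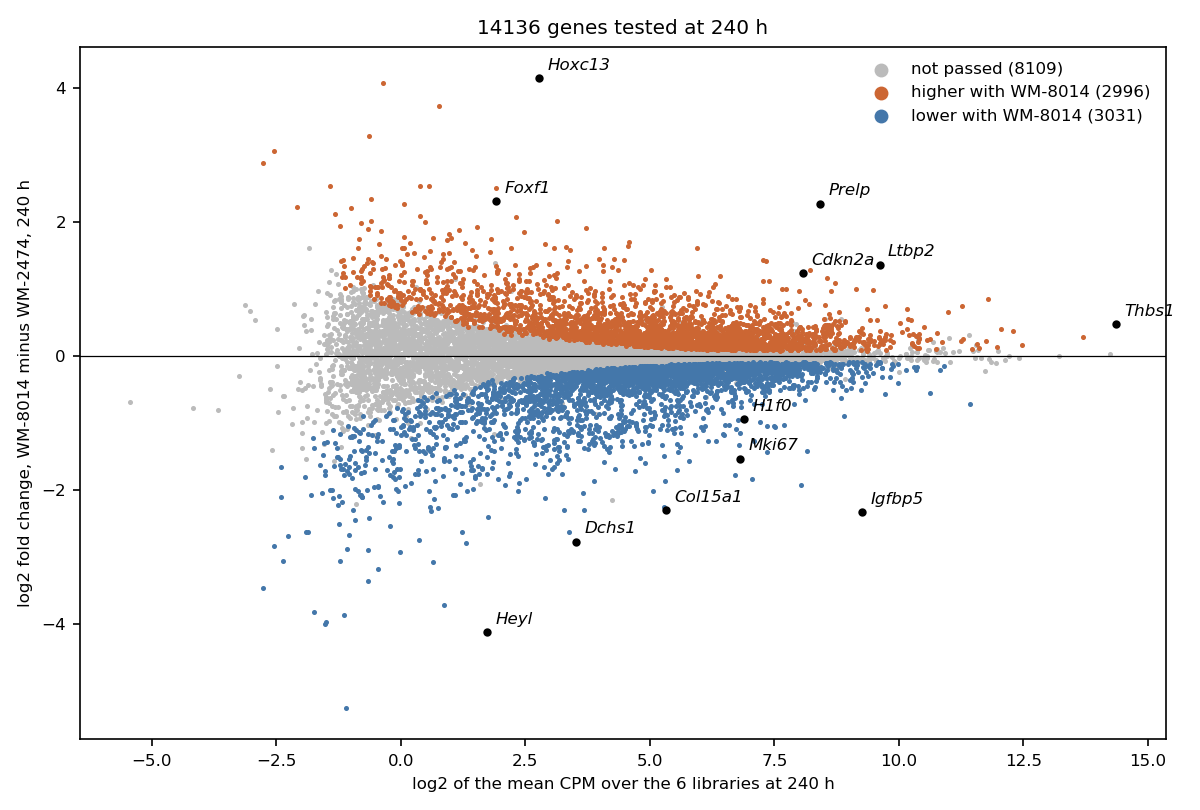
Each point is 1 of the 14136 genes tested at 240 h, with the log2 of its mean CPM over the 6 libraries on the x axis and the log2 fold change of WM-8014 against WM-2474 on the y axis. The 2996 genes higher and 3031 lower with WM-8014 are coloured, and named genes are marked in black, from Hoxc13 at 4.15 to Heyl at -4.12.

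The transcripts of the enzymes themselves differed little. Kat6a, which encodes 1 of the targets, was read at 94.8, 88.7 and 94.9 CPM in cultures 5, 6 and 7 with WM-2474 and at 80.2, 80.5 and 80.6 CPM with WM-8014. All 3 WM-8014 libraries lay below the 3 others, a 1.15-fold fall (log2 -0.21 ± 0.040 SE, adjusted p = 0.000233). Kat6b, its close relative, went the other way, from 49.4, 47.2 and 48.4 CPM to 59.6, 55.3 and 62.5 CPM (log2 0.28 ± 0.050, adjusted p = 9.67e-05), again without overlap. Of the 14 genes of KAT6 complexes and MYST enzymes, 2 rose (Kat6b and the scaffold gene Brpf3), 3 fell (Kat6a, Brpf1 and Jade1) and 9 did not pass, among them Kat5, Kat7 and Kat8. The share that changed was 35.7%, against 42.6% of all genes. Once reads were thinned to the size of the smallest library, 1 gene of the list fell.

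Both genes of the INK4 locus were higher in every WM-8014 culture. Cdkn2a encodes p16 INK4A and, from another first exon, ARF, and lies at chr4:89274473-89294619 (GRCm38, minus strand). Its reads came to 159, 156 and 166 CPM with WM-2474 and to 370, 365 and 397 CPM with WM-8014. The lowest WM-8014 library was thus well above the highest WM-2474 library, and the change was 2.36-fold (log2 1.24 ± 0.053, adjusted p = 1.69e-11). Counts are per gene, so that the products of its promoters, shown here because they cannot be told apart in the counts, were measured as a sum. Both windows run from 250 bases before to 50 after a RefSeq start site, and capitals mark a match to the E2F motif in the first and to a CCAAT box on the reverse strand in the second.
Cdkn2a upstream start, chr4:89294570-89294869, minus strand: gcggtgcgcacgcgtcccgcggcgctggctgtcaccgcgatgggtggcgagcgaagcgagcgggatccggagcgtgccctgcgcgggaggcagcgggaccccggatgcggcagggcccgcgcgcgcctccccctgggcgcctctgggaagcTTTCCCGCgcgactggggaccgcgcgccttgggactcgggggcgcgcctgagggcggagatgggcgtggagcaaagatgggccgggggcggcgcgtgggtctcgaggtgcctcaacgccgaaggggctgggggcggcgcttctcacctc
Cdkn2a downstream start, chr4:89282143-89282442, minus strand: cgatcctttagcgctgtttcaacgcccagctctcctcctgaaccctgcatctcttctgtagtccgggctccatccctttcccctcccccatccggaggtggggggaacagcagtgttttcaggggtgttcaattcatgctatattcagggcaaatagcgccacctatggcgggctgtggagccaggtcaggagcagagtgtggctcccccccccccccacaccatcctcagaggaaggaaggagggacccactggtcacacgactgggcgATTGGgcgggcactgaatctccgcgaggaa

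Cdkn2b, which encodes the neighbouring p15 INK4B, was read at 110, 114 and 114 CPM with WM-2474 and at 202, 193 and 196 CPM with WM-8014. Those groups also lay apart, by 1.74-fold (log2 0.80 ± 0.041, adjusted p = 5.21e-12). Cdkn1a, the p21 gene and a target of p53, rose by 1.29-fold (adjusted p = 6.04e-08) from 684, 685 and 684 CPM to 853, 856 and 947 CPM, with culture 7 the highest. The other members of the list did not follow. Cdkn2c, encoding p18, fell from 8.09, 9.11 and 9.55 CPM to 3.43, 3.84 and 3.58 CPM (log2 -1.28 ± 0.12, adjusted p = 1.14e-08). Cdkn1b, encoding p27, fell from 44.7, 45.3 and 43.4 CPM to 23.9, 23.5 and 22.7 CPM (log2 -0.93 ± 0.071, adjusted p = 2.43e-09). Cdkn2d fell by 0.63 on the log2 scale, and Cdkn1c had a log2 fold change of -0.91 that did not pass. Inhibitors of the same kinases thus moved in both directions, 3 up and 3 down of 7 (85.7% changed, against 42.6% of all genes).

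**Figure D2:**
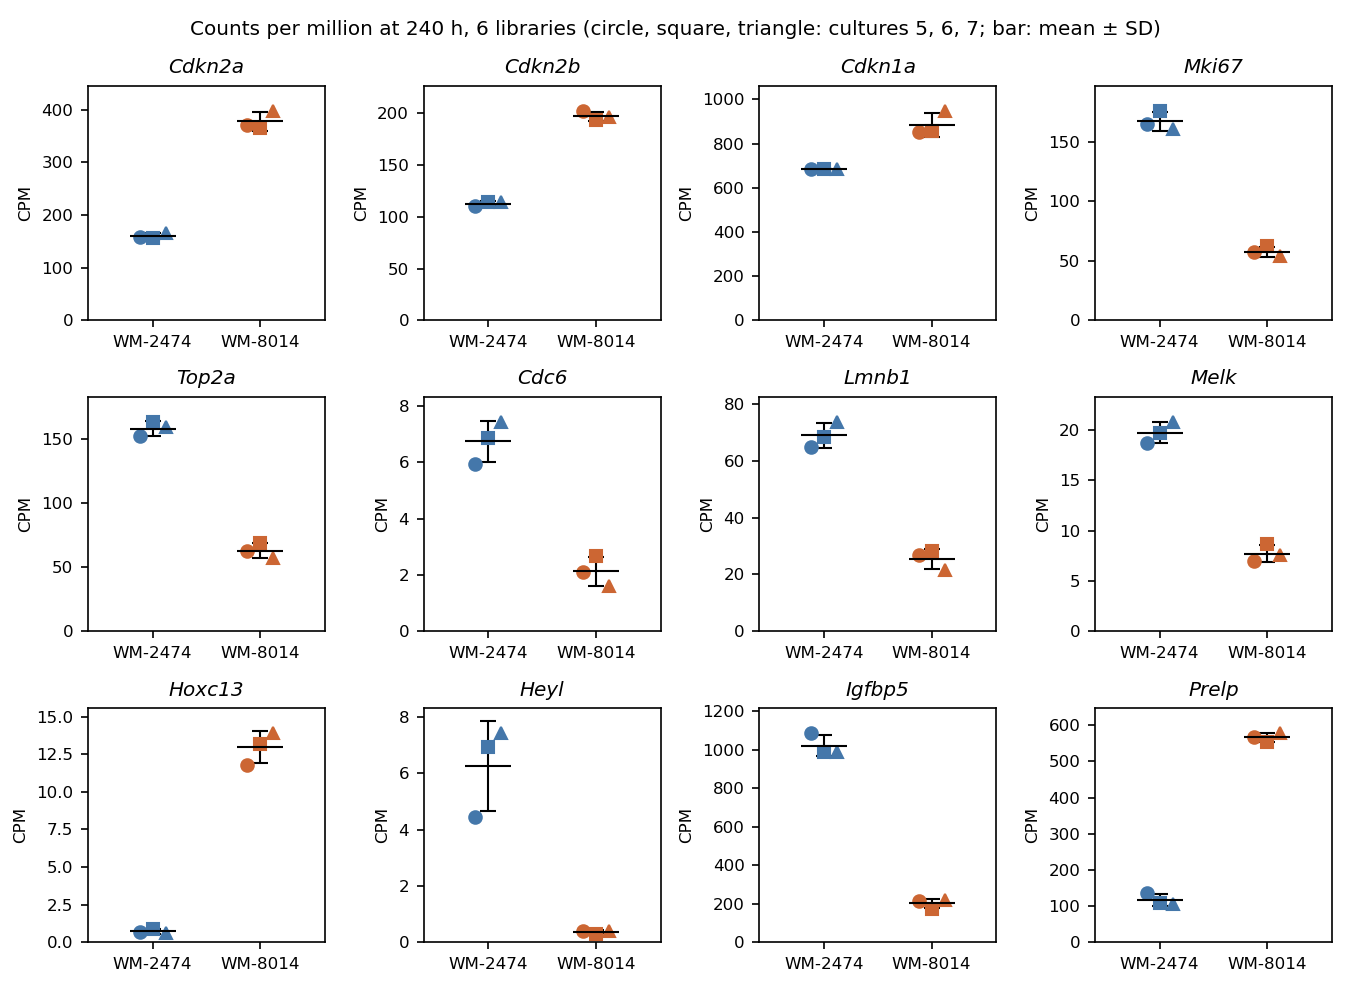
CPM of 12 genes in the 6 libraries at 240 h, 1 panel a gene, with WM-2474 on the left and WM-8014 on the right, a marker shape for each of cultures 5, 6 and 7, and a bar for the mean ± SD (n = 3). In every panel the 3 WM-8014 libraries lie apart from the 3 WM-2474 libraries, as for Cdkn2a at 365 to 397 against 156 to 166 CPM.

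Genes of DNA replication were lower almost throughout. Of 50 tested, 47 fell, none rose and Gins3, Rpa3 and Rrm2 did not pass, with a median log2 fold change of -0.76. The share that fell compares with 21.4% of all genes. Cdc6, which loads the replicative helicase onto origins, was read at 5.95, 6.84 and 7.42 CPM with WM-2474 and 2.12, 2.66 and 1.61 CPM with WM-8014, a 3.04-fold fall (log2 -1.60 ± 0.16, adjusted p = 6.82e-08). Uhrf1, which recruits the maintenance DNA methyltransferase, went from 41.9, 46.1 and 47.2 to 12.4, 16.6 and 14.6 CPM (log2 -1.59 ± 0.084, adjusted p = 1.07e-10). That methyltransferase itself, Dnmt1, moved less, from 118, 123 and 126 to 78.5, 77.4 and 77.1 CPM (log2 -0.66 ± 0.040, adjusted p = 3.54e-11). In none of these did the groups overlap. The polymerase gene Pole fell by 1.08, the histone chaperone gene Chaf1a by 0.83 and the helicase subunit genes Mcm5 and Mcm3 by 1.30 and 1.1 on the log2 scale. Rrm2, the small subunit of ribonucleotide reductase, stood apart from its list at 70.6, 74.7 and 72.5 CPM against 71.4, 82.7 and 56.6 CPM.

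Genes of G2 and mitosis fell further. Of 55, 54 were lower (98.2%, against 21.4% of all genes) and 41 of those by at least 2-fold, at a median log2 fold change of -1.12. Mki67, the gene of the proliferation antigen Ki-67, was read at 165, 176 and 161 CPM with WM-2474 and at 57.4, 62.2 and 54.0 CPM with WM-8014 (log2 -1.53 ± 0.057, adjusted p = 3.1e-12). Top2a, encoding the topoisomerase that untangles chromosomes, went from 152, 163 and 159 to 62.5, 68.7 and 57.5 CPM (log2 -1.32 ± 0.060, adjusted p = 4.16e-11). In both genes every WM-8014 library was under every WM-2474 library. The mitotic kinase gene Plk1 fell from 51.3, 54.4 and 57.4 to 19.8, 23.4 and 20.4 CPM (adjusted p = 1.97e-12), and Melk from 18.7, 19.7 and 20.8 to 6.96, 8.67 and 7.56 CPM (adjusted p = 1.35e-10). The condensin genes Smc4 and Ncapd2 and the centromere gene Cenpf fell by 1.03, 1.1 and 1.31 on the log2 scale. Pttg1, which encodes securin, was the 1 member called higher (log2 0.25, adjusted p = 0.0194), and that call was lost under DESeq2, after thinning, without culture 5 or 7 and without each of 3 single libraries (WM-2474 culture 7, WM-8014 cultures 5 and 7). In bulk RNA, fewer cells in S, G2 or M phase and less RNA of these genes per cell cannot be told apart.

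Because both lists moved together, their RefSeq promoter windows were searched on both strands for motifs known from cell cycle genes. These were the E2F motif (TTTCCCGC, TTTGGCGC, TTTCGCGC or TTTGCCGC), the cell cycle homology region (TTTGAA) and the CCAAT box. Windows were found for 40 of the 50 replication genes and 46 of the 55 mitotic genes, 48 windows in each list. The E2F motif was held by 16 of the 48 replication windows (33.3%) and by 3 of the 48 mitotic windows (6.25%), against 2.26% of 32851 windows of all genes. For the cell cycle homology region the order was the reverse, with 6 windows (12.5%) of replication and 35 (72.9%) of mitotic genes, against 17.9% of all. CCAAT boxes were in 60.4% and 70.8%, against 37.4%. They were not particular to these lists, as 16 of 21 windows of cholesterol synthesis genes (76.2%) also held them. A match describes the letters of a window and is not evidence that a factor bound there. The examples below show 1 replication gene and 2 mitotic genes, with matches in capitals, the E2F motif of Cdc6 being on the reverse strand.
Cdc6, chr11:98907901-98908200, plus strand: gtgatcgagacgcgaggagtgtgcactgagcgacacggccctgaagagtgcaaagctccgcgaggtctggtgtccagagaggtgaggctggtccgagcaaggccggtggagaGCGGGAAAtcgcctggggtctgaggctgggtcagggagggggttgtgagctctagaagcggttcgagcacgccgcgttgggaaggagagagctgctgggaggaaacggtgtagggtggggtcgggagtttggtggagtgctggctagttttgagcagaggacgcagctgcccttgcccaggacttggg
Mki67, chr7:135716330-135716629, minus strand: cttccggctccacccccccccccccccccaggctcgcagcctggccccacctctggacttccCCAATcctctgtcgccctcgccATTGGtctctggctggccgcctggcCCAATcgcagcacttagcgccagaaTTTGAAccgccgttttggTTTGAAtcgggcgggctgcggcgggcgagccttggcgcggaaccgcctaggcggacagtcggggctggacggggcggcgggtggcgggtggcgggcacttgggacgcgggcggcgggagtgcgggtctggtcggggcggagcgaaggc
Plk1, chr7:122159185-122159484, plus strand: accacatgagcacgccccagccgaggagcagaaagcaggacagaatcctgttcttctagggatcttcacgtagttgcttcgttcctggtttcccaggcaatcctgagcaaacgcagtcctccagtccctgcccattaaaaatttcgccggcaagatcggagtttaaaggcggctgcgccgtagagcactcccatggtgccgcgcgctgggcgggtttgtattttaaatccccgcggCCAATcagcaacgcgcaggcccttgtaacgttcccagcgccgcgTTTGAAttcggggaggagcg

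**Figure D3:**
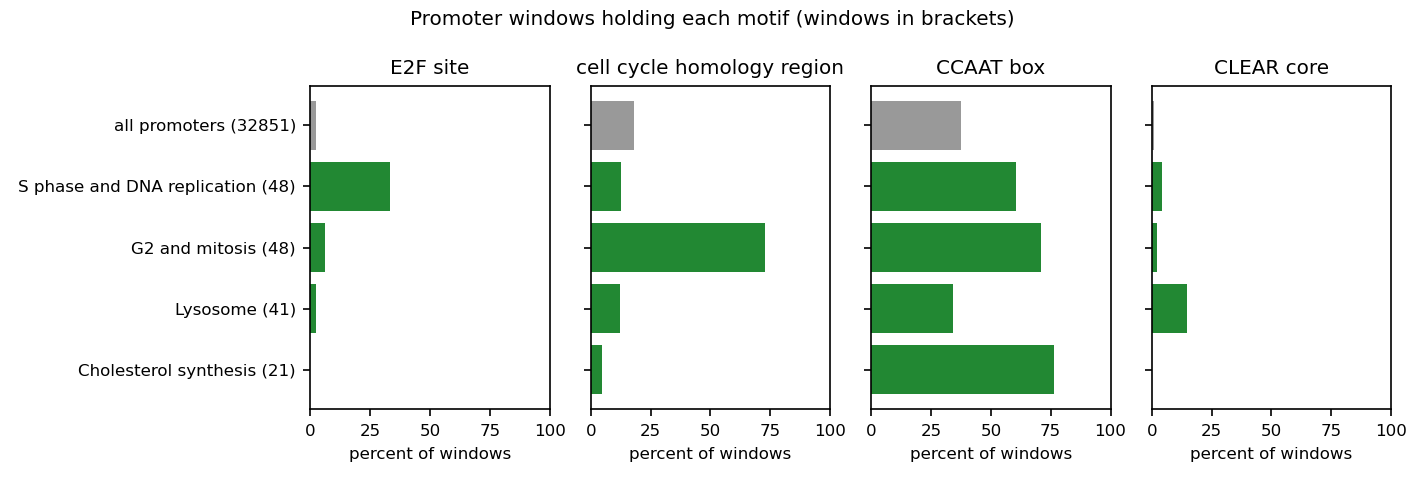
Percent of promoter windows (250 bases before to 50 after a RefSeq start site, GRCm38.p6) that hold each of 4 motifs, in all promoters and in 4 gene lists, with the number of windows in brackets. The E2F motif stands at 33.3% of replication windows and the cell cycle homology region at 72.9% of mitotic windows, against 2.26% and 17.9% of all.

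Upstream of those lists, G1 regulators moved both ways. Of 22, 7 rose and 12 fell (86.4% changed, against 42.6% of all genes). E2f7, an atypical repressor of E2F genes, fell from 17.8, 18.0 and 20.2 to 6.05, 7.98 and 6.86 CPM (adjusted p = 5.96e-10), and the activator gene E2f2 from 1.66, 1.82 and 2.08 to 0.907, 0.726 and 0.519 CPM (adjusted p = 0.000174). E2f6, which represses without binding RB, rose from 69.0, 71.4 and 67.9 to 119, 123 and 107 CPM (log2 0.75 ± 0.052, adjusted p = 4.04e-10). The activator genes were split, with E2f1 higher, E2f2 lower and E2f3 not passing. The atypical genes E2f7 and E2f8 both fell, and of the other repressors E2f4 fell, E2f6 rose and E2f5 did not pass. The cyclin gene Ccnd2 rose from 1218, 1260 and 1255 to 1664, 1645 and 1723 CPM (adjusted p = 5.34e-08). Ccnd1 rose by 0.36 and Rb1 by 0.54 on the log2 scale, while Ccne2 fell by 0.77.

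Most genes in the list of the nuclear envelope and its chromatin partners were lower, while Polycomb genes were mixed. Of 21 genes of the lamina, linker histone H1.0 and high-mobility group proteins, 16 fell, Sun2 rose and 4 did not pass (81% changed, against 42.6% of all genes). Tmpo, a lamina-associated protein gene, had the smallest p of the list and went from 122, 123 and 128 to 53.1, 57.8 and 52.0 CPM (log2 -1.18 ± 0.048, adjusted p = 3.5e-13). Lmnb1, encoding lamin B1, went from 64.8, 68.1 and 73.5 to 26.8, 28.2 and 21.4 CPM (log2 -1.43 ± 0.095, adjusted p = 1.16e-07). Lmna, encoding the A-type lamins, was at 1147 to 1174 CPM with WM-2474 and 1120 to 1167 CPM with WM-8014 (log2 -0.02, adjusted p = 0.685). The lamin genes therefore had different values, with no overlap for Lmnb1 and overlap for Lmna. H1f0 fell from 165, 144 and 161 to 80.7, 77.8 and 86.6 CPM (log2 -0.94 ± 0.048), and Hmgb2 from 10.4, 10.2 and 10.2 to 4.74, 3.80 and 3.17 CPM. Among 28 Polycomb genes 11 fell and 5 rose (57.1% changed, against 42.6% of all genes). Ezh2, the methyltransferase of complex 2, fell from 30.3, 32 and 32.6 to 15.4, 17.5 and 15.1 CPM (log2 -0.97 ± 0.073, adjusted p = 1.04e-09), while its paralogue Ezh1 rose by 0.39 and Bmi1, a complex 1 subunit that restrains the INK4 locus, by 0.27 on the log2 scale. The count of 5 that rose was 3 after thinning, without the WM-2474 library of culture 6, without the WM-8014 library of culture 5 or without culture 5, and 2 without culture 6.

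p53 targets rose in part. Of 34, 12 were higher and 4 lower, and 18 did not pass. The share that rose was 35.3%, against 21.2% of all genes, and 47.1% changed, against 42.6%. Mdm2, the ligase that degrades p53, was read at 223, 228 and 208 CPM with WM-2474 and 285, 291 and 315 CPM with WM-8014 (log2 0.44 ± 0.041, adjusted p = 2.24e-08). Ccng1 went from 928, 938 and 944 to 1184, 1183 and 1235 CPM (adjusted p = 3.32e-08), and Gdf15, a secreted stress factor, from 6.64, 6.80 and 8.36 to 15.3, 13.9 and 13.6 CPM (adjusted p = 1.75e-07). Each gene's groups lay apart. Apoptosis genes of the list went both ways. Perp (log2 0.67), Fas and Tnfrsf10b rose, Pmaip1 (-0.42) fell, and Bbc3 (-0.16) and Bax did not pass. The 4 genes that fell were 2 without culture 6.

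Secreted factors typical of senescent cells showed more rises than falls, 14 and 3 of 34 tested out of 45 listed. The share that rose was 41.2%, against 21.2% of all genes, and 50% changed, against 42.6%. Csf1, the macrophage growth factor gene, went from 367, 385 and 368 to 794, 834 and 613 CPM, a 2-fold rise with culture 7 lowest (adjusted p = 8.29e-05). Timp2, an inhibitor of matrix proteases, rose from 1905, 1742 and 1848 to 3037, 2981 and 3208 CPM (adjusted p = 6.43e-12). Igfbp4, which binds insulin-like growth factors, went from 102, 78.3 and 68.1 to 240, 232 and 203 CPM (adjusted p = 7.85e-05). Each of these rises was without overlap of the groups. Its relative Igfbp5 (chr1:72858065-72874865) moved the other way and was the most abundant gene to fall by at least 2-fold, from 1087, 990 and 990 to 214, 176 and 221 CPM (log2 -2.33 ± 0.13, adjusted p = 1.34e-06). Inflammatory genes of the list were partly higher. The chemokine gene Ccl7 rose from 38.2, 36.4 and 38.1 to 60.6, 52.6 and 45.4 CPM (adjusted p = 0.00487), and the adhesion gene Icam1 rose by 0.43 on the log2 scale (adjusted p = 0.00455) with overlap of the groups. Il6 was at 1.83 to 2.36 CPM against 2.08 to 3.77 CPM (adjusted p = 0.0528), and Cxcl1, Cxcl5, Ccl2 and Il11 did not pass. The 3 genes that fell were 5 under DESeq2 and 1 after thinning or without either library of culture 6.

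Matrix genes split, with 15 higher and 19 lower of 55 (61.8% changed, against 42.6% of all genes). Thbs1, encoding thrombospondin 1, took most reads of the changed matrix genes, at 17205, 18014 and 17604 CPM with WM-2474 and 24408, 24549 and 24672 CPM with WM-8014 (log2 0.48 ± 0.038, adjusted p = 1.82e-09). Prelp (chr1:133910304-133930102), a small leucine-rich proteoglycan gene outside the list, rose from 136, 108 and 105 to 567, 553 and 578 CPM, or 4.87-fold (log2 2.28 ± 0.14, adjusted p = 2.28e-06). A further member of that proteoglycan family, Fmod, went from 96.7, 90.7 and 73.7 to 221, 237 and 243 CPM (adjusted p = 0.000417). Lum, also of that family, fell from 24.4, 9.15 and 14.5 to 3.13, 1.73 and 5.48 CPM (log2 -2.29 ± 0.50, adjusted p = 0.00595). Proteoglycan genes of 1 family thus differed in direction, and Lum varied widely between cultures (adjusted p = 0.0882 without culture 5, range 2.79e-05 to 0.0882 over all alternatives). Col15a1, a basement membrane collagen gene, fell from 65.6, 66.1 and 68.0 to 11.8, 12.7 and 15.7 CPM (log2 -2.30 ± 0.095, adjusted p = 1.08e-11). The microfibril genes Efemp1 and Mfap5 rose by 1.09 and 1.03, and Fbln1 fell by 1.31 on the log2 scale. The main fibrillar collagen genes Col1a1, Col1a2 and Col3a1 did not pass. Without culture 5 the count of matrix genes that fell was 11.

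Of 23 genes of the contractile apparatus 8 rose (34.8%, against 21.2% of all genes), Smtn fell and 14 did not pass, so that 39.1% changed against the background of 42.6%. Of 16 targets of the YAP coactivator and TEAD factors 8 rose, Tead1 fell and 7 did not pass (56.2% changed). Des, encoding desmin, went from 34.2, 28.1 and 28.3 to 106, 90.2 and 81.6 CPM (log2 1.61 ± 0.10, adjusted p = 1.01e-07). Tpm2, a tropomyosin gene, went from 845, 886 and 847 to 1256, 1269 and 1109 CPM (adjusted p = 4.5e-09), and Vcl, encoding vinculin, from 1192, 1228 and 1197 to 1555, 1565 and 1422 CPM (adjusted p = 2.58e-07). The smooth muscle actin gene Acta2 overlapped, at 5244 to 5643 against 4973 to 5627 CPM (adjusted p = 0.568). The count of contractile genes that rose was 5 without culture 5 or 6 and without either library of culture 5, near the background. Skeletal muscle markers stood at a summed 228 to 319 CPM with WM-2474 and 418 to 631 CPM with WM-8014, nearly all of it Acta1, with Myod1, Myf5 and Myog at no more than 0.107 CPM and Ckm at 0. Acta1 itself went from 226, 316 and 260 to 528, 628 and 416 CPM (adjusted p = 0.00199; 0.0687 without culture 5), and the part of muscle cells in these values was not tested.

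In the Notch pathway 4 of 16 genes rose and 7 fell (68.8% changed, against 42.6% of all genes). Heyl, a Notch-induced repressor gene at chr4:123233556-123249870, was read at 4.45, 6.93 and 7.42 CPM with WM-2474 and 0.403, 0.311 and 0.404 CPM with WM-8014, a 17.3-fold fall (log2 -4.12 ± 0.31, adjusted p = 1.08e-09). Its lowest library held 4 reads, so the fold is known only within its interval of -4.76 to -3.48 (95%). Hey2, another target, fell from 3.70, 5.20 and 4.50 to 1.41, 2.07 and 1.21 CPM (adjusted p = 2.56e-05), and the ligand gene Jag1 from 141, 173 and 152 to 61.7, 73.3 and 74.2 CPM (log2 -1.14 ± 0.11, adjusted p = 1.4e-05). Means at 96 h with WM-2474 and WM-8014 were 0.511 and 0.0681 CPM for Heyl, 1 and 0.408 for Hey2, and 49.9 and 32.7 for Jag1. These genes were thus higher at 240 h than at 96 h with both compounds, and a fall here is against WM-2474, not over time. The receptor gene Notch1 fell by 0.69, and Hey1 (-0.49) did not pass. Receptor, ligand and targets were therefore among the members that fell, while Notch4, Jag2, Notch2 and Maml2 rose.

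Dchs1 encodes a giant cadherin that binds FAT4 between cells and lies at chr7:105752989-105788355. It had the lowest fold change of the genes with a mean log2 CPM of at least 1, from 22, 18.4 and 18.7 to 3.93, 2.14 and 3.35 CPM (log2 -2.77 ± 0.15, adjusted p = 2.14e-10). Its partner Fat4 (log2 -0.14) did not pass. Fat1 rose by 0.32 and the planar polarity gene Vangl2 fell by 0.70. Of the 15 genes tested in the list 7 rose and 4 fell (73.3% changed, against 42.6% of all genes). The 7 that rose were 2 after thinning and 3 without culture 6.

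Counts in the remaining pathways were as follows, with the share of members that changed in brackets, against 42.6% of all genes. In the Hedgehog list 5 of 11 fell and none rose (45.5%). Gli2, a transcription factor, went from 23.2, 20.3 and 21.7 to 10.3, 10.1 and 15.8 CPM (adjusted p = 0.000258), and Gas1, a co-receptor gene, from 271, 188 and 199 to 102, 86.5 and 132 CPM (adjusted p = 0.00265; 0.059 with a replicate block within the 240 h libraries). The direct target Ptch1 (log2 -0.01) did not pass. In the Wnt list 7 of 33 rose and 11 fell (54.5%), the latter 7 without culture 7. The ligand gene Wnt5a fell from 183, 201 and 205 to 133, 144 and 134 CPM (adjusted p = 3.24e-08). Axin2, a target gene of the pathway, rose from 3.48, 4.18 and 3.12 to 5.14, 6.6 and 7.61 CPM (adjusted p = 6.02e-05). Other members also went both ways, with Lgr5 and Apcdd1 lower, Notum and Nkd2 higher, and Lef1 and Tcf7 not passing. In the list of TGF-beta and BMP genes 13 of 39 rose and 3 fell (41%). Ltbp2, which encodes a latent TGF-beta binding protein of microfibrils, went from 455, 452 and 407 to 1159, 1167 and 1060 CPM (log2 1.37 ± 0.077, adjusted p = 1.09e-07). Grem1, a secreted BMP antagonist gene, went from 251, 219 and 224 to 532, 505 and 530 CPM (log2 1.17 ± 0.064, adjusted p = 1.1e-08). A further antagonist gene, Nog, rose by 0.88, and the receptor gene Bmpr1b by 1.07 on the log2 scale. The count of 3 that fell was 5 without culture 5 or 6, without either WM-2474 library of those cultures or without the WM-8014 library of culture 7. Among IGF, PDGF and FGF genes 10 of 30 rose and 7 fell (56.7%). Pdgfa rose from 27.6, 27.8 and 27.5 to 49.4, 47.2 and 50.9 CPM (adjusted p = 4e-09), and the receptor gene Pdgfra fell from 220, 193 and 202 to 154, 150 and 153 CPM (adjusted p = 1.84e-06).

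Of 33 Hox genes tested, 11 fell, at a median log2 fold change of -0.13 over the list, and the 3 that rose belong to paralogue group 13. The share that changed was 42.4%, against 42.6% of all genes. Hoxc13 (chr15:102921131-102928814), a posterior Hox gene, had the highest fold change of the genes with a mean log2 CPM of at least 1. It was read at 0.696, 0.889 and 0.594 CPM with WM-2474 and 11.8, 13.2 and 13.9 CPM with WM-8014, 17.7-fold higher (log2 4.15 ± 0.20, adjusted p = 2.13e-12). Hoxb13 went from 0.375, 0.133 and 0.198 to 3.33, 2.87 and 3.35 CPM (log2 3.74 ± 0.35, adjusted p = 1.85e-08), and Hoxd13 from 0.375, 0.0444 and 0.0495 to 0.504, 0.622 and 0.807 CPM (adjusted p = 0.0188), with libraries of few reads. In all of these the groups lay apart. The more anterior genes Hoxd4 and Hoxc9 fell by 0.80 and 0.50 on the log2 scale. Among 74 other developmental transcription factors 14 rose and 20 fell, shares near the background. Foxf1, a mesenchymal factor gene, rose from 1.71, 1.02 and 1.09 to 5.85, 6.84 and 5.94 CPM (log2 2.32 ± 0.17, adjusted p = 7.85e-10), and Osr1 fell from 70.7, 59.8 and 60.8 to 39.0, 37.4 and 37.3 CPM (adjusted p = 5.41e-09). The 14 that rose were 8 after thinning or without culture 6 and 9 without its WM-8014 library.

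Imprinted genes fell in 13 of 29 cases and rose in 4 (58.6% changed, against 42.6% of all genes). Slc38a4, a paternally expressed amino acid transporter gene, had the smallest p of all genes named here, going from 82.0, 79.5 and 87.1 to 27.4, 30.3 and 25.6 CPM (log2 -1.56 ± 0.055, adjusted p = 3.5e-14). Peg3 fell from 157, 133 and 139 to 67.4, 64.2 and 72.0 CPM (adjusted p = 2.82e-08), and Mest from 25.1, 20.8 and 16.5 to 2.12, 6.22 and 5.02 CPM (adjusted p = 0.00148). Dlk1, which encodes a membrane protein related to Notch ligands, went from 231, 173 and 215 to 52.2, 44.5 and 76.8 CPM (adjusted p = 0.000137). No overlap was seen in any of these. The growth factor gene Igf2 (log2 0.55, adjusted p = 0.0587) did not pass. The 4 that rose were 2 without culture 6 or its WM-8014 library.

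Lysosomal genes rose together by small amounts. Of 44 tested, 32 rose, against 21.2% of all genes, Ctsc fell and 11 did not pass, at a median log2 fold change of 0.24 and none of them at 2-fold. Ctsd, the cathepsin D gene, went from 1019, 986 and 972 to 1428, 1415 and 1473 CPM (log2 0.54 ± 0.036, adjusted p = 1.38e-10). The groups did not overlap. The core of the CLEAR element (TCACGTGA), bound by TFEB, was in 6 of 41 windows of 35 lysosomal genes (14.6%), against 0.974% of all windows, and the window of Ctsd, shown as the gene with the smallest p, holds it.
Ctsd, chr7:142387778-142388077, minus strand: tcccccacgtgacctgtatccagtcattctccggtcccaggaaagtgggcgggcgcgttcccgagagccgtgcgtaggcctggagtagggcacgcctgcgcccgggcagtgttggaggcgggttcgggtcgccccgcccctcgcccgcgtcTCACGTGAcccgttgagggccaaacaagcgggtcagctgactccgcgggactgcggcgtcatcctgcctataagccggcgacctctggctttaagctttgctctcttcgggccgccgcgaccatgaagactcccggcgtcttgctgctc

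Genes of cholesterol synthesis were mostly lower, and those of fatty acid metabolism moved both ways. Of 28 cholesterol synthesis genes and related SREBP targets 23 fell, Hsd17b7 rose and 4 did not pass (85.7% changed, against 42.6% of all genes). Their median log2 fold change was -0.32. Scd2, a desaturase gene, went from 1809, 1871 and 1915 to 1269, 1276 and 1277 CPM (log2 -0.55 ± 0.035, adjusted p = 7.46e-11), again without overlap. In the list of fatty acid synthesis and PPAR targets 16 of 31 rose and 11 fell (87.1% changed, against 42.6% of all genes). Those that fell included the synthesis genes Acaca (log2 -0.48), Fasn (-0.27) and Elovl6 (-0.64), and the lipid use genes Acadl (-0.24), Lpl (-0.96), Fabp5 (-0.71) and Ucp2 (-1.08). Those that rose included Cpt1a, which admits fatty acids to mitochondria, from 48.2, 42.3 and 45.4 to 78.3, 75.6 and 80.2 CPM (adjusted p = 4.66e-11), and the lipid droplet gene Plin4, from 2.95, 3.38 and 4.06 to 15.8, 14.2 and 12.7 CPM (log2 2.02 ± 0.13, adjusted p = 1.07e-10). Pparg rose by 1.16 and Pdk4 by 1.14, and so did the synthesis genes Me1 and Elovl1, by 0.25 and 0.14. Of the adipocyte markers Fabp4 and Pparg rose and Lpl fell, the list summed to 38.6 to 44.6 CPM with WM-2474 and 27.9 to 29.5 CPM with WM-8014, and Lep and Cidec were at 0 in all 6 libraries. The part of adipocytes in these values was not tested.

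Stress, growth and energy genes changed by less than 2-fold, apart from the glucuronosyltransferase gene Ugt1a6a. NRF2 and aryl hydrocarbon receptor targets rose in 12 of 24 cases and fell in 4 (66.7% changed, against 42.6% of all genes). Nqo1, a quinone reductase gene, was at 23.3, 23.7 and 22.5 CPM with WM-2474 and 45.9, 49.1 and 40.0 CPM with WM-8014 (adjusted p = 9.26e-09). Ugt1a6a rose by 1.38 on the log2 scale, but shares exons with other genes of its locus. Among genes of the unfolded protein and integrated stress responses 14 of 36 fell and 3 rose (47.2% changed, against 42.6% of all genes). The amino acid transporter gene Slc7a5 went from 277, 296 and 311 to 178, 167 and 192 CPM (adjusted p = 1.91e-10). Ribosome biogenesis genes fell in 25 of 42 cases (59.5%, against 21.4% of all genes) and rose in none. Ncl, encoding nucleolin, went from 676, 748 and 744 to 545, 570 and 529 CPM (adjusted p = 2.22e-07). Myc (log2 -0.02) did not pass. Of 53 ribosomal protein genes 18 fell (34%, against 21.4% of all genes) and none rose, so that 34% changed, against 42.6%. Their median was -0.09, and the 18 were 11 without culture 7. These genes and Gapdh have near-identical copies in the genome, which makes their counts uncertain. Of 31 glycolysis and hypoxia genes 6 rose and 7 fell (41.9% changed, at the background of 42.6%), with a rise of Hk1 by 0.37 on the log2 scale. Of 43 oxidative phosphorylation genes 4 rose and 6 fell (23.3% changed), with a fall of Atp5a1 by 0.25. For oxidative phosphorylation, 1 gene rose without culture 5 or 6, without the WM-2474 library of culture 5 or without the WM-8014 library of culture 6. There, 2 genes fell without culture 7 and 3 without its WM-2474 library.

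Immune genes gave no common direction. Of 31 interferon-stimulated genes 4 rose and 3 fell, below the background on both sides. Irf1 fell from 18.3, 16.4 and 14.5 to 9.78, 11.2 and 11.3 CPM (adjusted p = 2.31e-05), and Ifi27 rose from 18.6, 13.4 and 17.1 to 29.5, 25.8 and 26.9 CPM (adjusted p = 7.27e-06). Without the WM-2474 library of culture 5 the counts were 8 and 1, and the 3 that fell were also 1 without culture 5 or 7 and without the WM-8014 library of culture 6. Among 17 antigen presentation genes 6 rose and 3 fell (52.9% changed, against 42.6% of all genes), and the count that rose was 3 without culture 7. H2-K1, a class I gene with near-identical relatives, fell from 27.5, 24.8 and 27.4 to 14.9, 13.6 and 15.5 CPM (adjusted p = 5.92e-09), while H2-DMb1, which loads class II molecules and has a close copy, rose from 1.13, 1.07 and 1.19 to 5.85, 6.74 and 6.63 CPM (log2 2.52 ± 0.18, adjusted p = 2.88e-10). Genes best known from leukocytes were among the largest rises. Cd53 went from 1.45, 2.27 and 1.93 to 8.27, 9.12 and 6.58 CPM (adjusted p = 1.18e-08), and the chemokine receptor gene Cxcr6 from 4.55, 6.58 and 5.25 to 22, 25.7 and 14.4 CPM (adjusted p = 0.000257). Of 14 leukocyte markers 4 could be tested, and Csf1r and Lyz2 rose. The 14 summed to 6.68 to 8.89 CPM with WM-2474 and 13.1 to 13.9 CPM with WM-8014. Ptprc, the pan-leukocyte gene, was at 0 to 0.311 CPM with WM-2474 and 0 to 0.0691 CPM with WM-8014, and Adgre1, Itgam and Tyrobp did not exceed 0.173 CPM in any library. The part of leukocytes in the rises of Cd53, Cxcr6, Csf1r and Lyz2 was not tested.

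**Figure D4:**
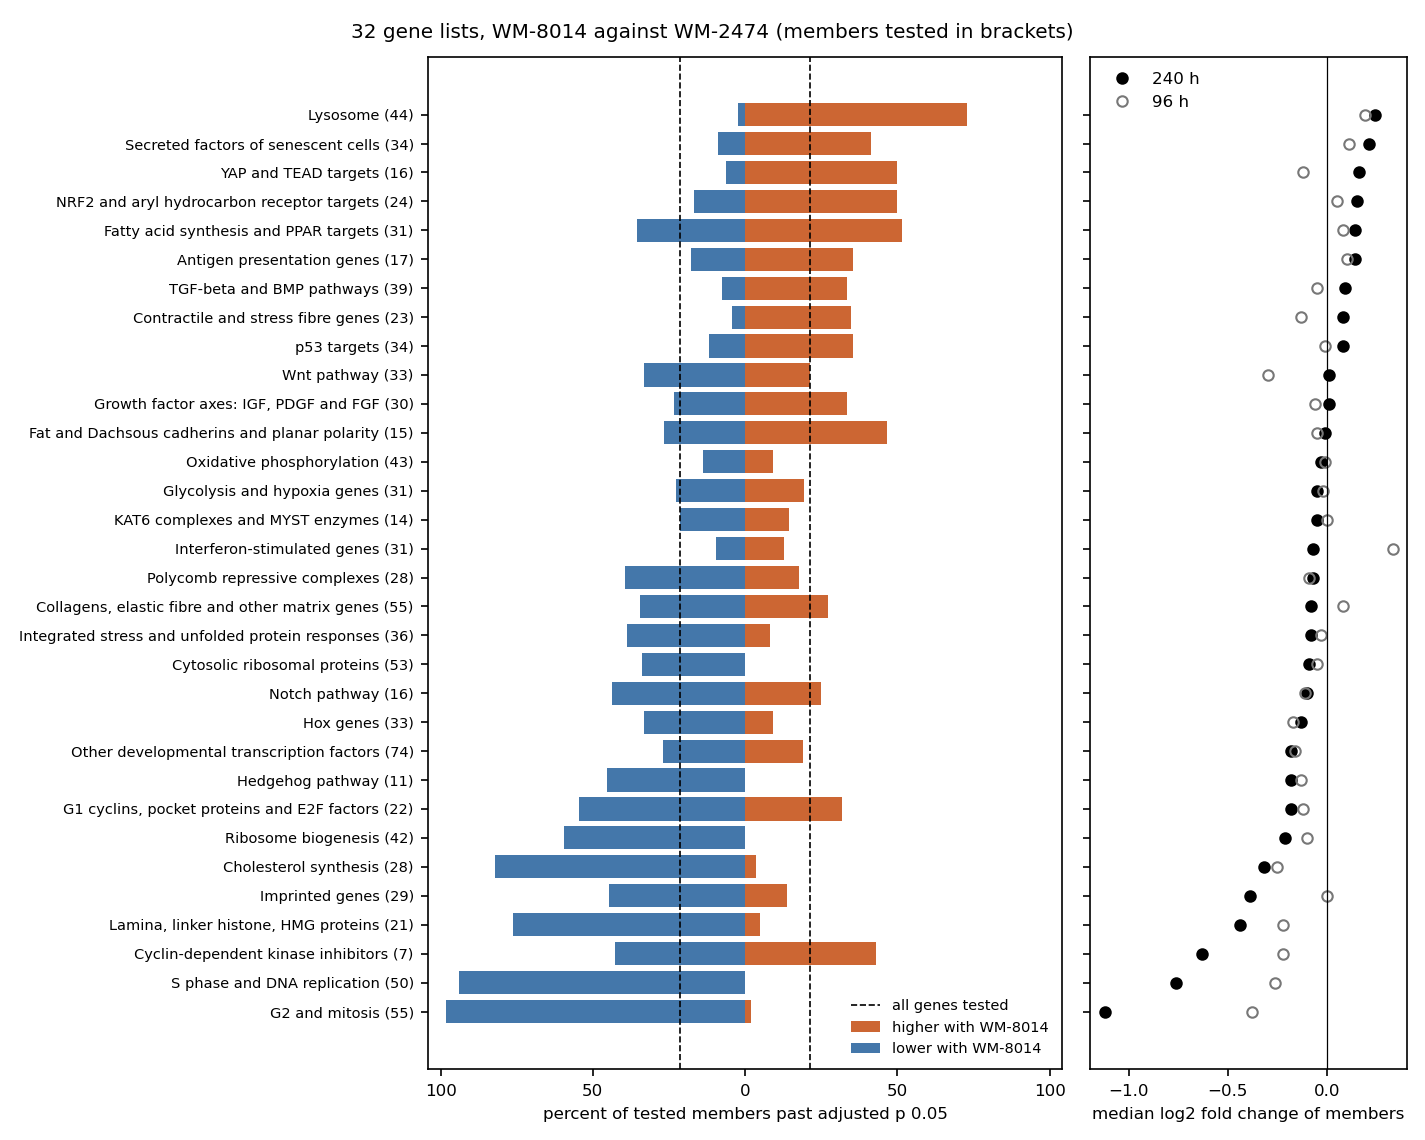
Left, the percent of tested members of 32 gene lists that were higher (right of 0) or lower (left of 0) with WM-8014 at 240 h, with dashed lines at 21.2% and 21.4% of all genes tested. Right, the median log2 fold change of each list at 240 h (filled) and 96 h (open), from -1.12 for G2 and mitosis to 0.24 for lysosome at 240 h.

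Sums of markers of the remaining cell types were also taken. The endothelial list summed to 7.95 to 8.46 CPM with WM-2474 and 6.92 to 8.09 CPM with WM-8014, with Cldn5 at 0. Epithelial and mesothelial markers summed to 17.8 to 19.7 and 22.3 to 30.1 CPM, and none of 5 tested passed. Neuronal and glial markers summed to 75.6 to 92.9 and 64.1 to 74.3 CPM, with Map2 and Sox10 lower (log2 -1.19 and -1.31) and Rbfox3 at 0. Cartilage and bone markers summed to 102 to 147 and 96.2 to 140 CPM, with Comp and Sp7 higher (log2 1.77 and 1.11). The part of these cells in the results was not tested.

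Several of the genes with the largest folds belong to none of these lists. Crmp1, which encodes a cytoskeletal protein of axon guidance, fell from 17, 21 and 16.4 to 2.02, 3.52 and 2.65 CPM (log2 -2.62 ± 0.15, adjusted p = 3.12e-10). Adcyap1r1, the receptor gene of the neuropeptide PACAP, fell from 57.3, 62.2 and 72.2 to 15, 12.2 and 13.8 CPM (adjusted p = 9.64e-11). Agtr2, encoding an angiotensin II receptor, varied more, at 33.1, 11.7 and 18.8 against 4.03, 3.04 and 6.23 CPM (adjusted p = 0.00704), and did not pass without culture 5 (0.0919) or 7 (0.0636). All 3 kept the groups apart. The retinoic acid binding protein gene Crabp1 was among the most abundant to fall by at least 2-fold, from 423, 386 and 436 to 157, 156 and 153 CPM (log2 -1.42 ± 0.056, adjusted p = 1.69e-11). Among the rises, Sncg, encoding gamma-synuclein, went from 12.1, 10.4 and 10.7 to 40.6, 32.5 and 37.1 CPM (adjusted p = 1.69e-11). Serpina3n, a protease inhibitor gene with close relatives, went from 1.45, 0.711 and 1.34 to 5.95, 3.35 and 4.61 CPM (adjusted p = 3.55e-05). Each of these also lay apart between the compounds.

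The effect at 240 h differed from that at 96 h in 1510 genes (10.7% of those tested), by the test of the difference between both effects. Of the 3218 genes called at 96 h, 2413 (75%) were called at 240 h in the same direction, which is 40% of the 6027 genes called at 240 h, and 62 were called in opposite directions. Genes that were lower at 240 h and further below their 96 h effect numbered 728, and 644 were higher and further above it. In the G2 and mitosis list the median log2 fold change was -0.38 at 96 h and -1.12 at 240 h, and the difference passed in 52 of 55 genes, all negative. For S phase it passed in 35 of 50, all negative. Mki67 shows the size, with 258 and 197 CPM at 96 h (means of 3) and a difference of -1.13 on the log2 scale (adjusted p = 2.06e-07). Cdkn2a stood at 87.7 and 140 CPM at 96 h, a log2 fold change of 0.68 that was larger by 0.55 at 240 h (adjusted p = 0.000173).

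Some lists had a different balance of rises and falls at 96 h and 240 h. For all genes, 3218 of the 14136 tested were called at 96 h, in either direction. Of the contractile genes 1 rose and 13 fell at 96 h, against 8 and 1 at 240 h, when 14 did not pass. Their median log2 fold change was -0.13 at 96 h and 0.08 at 240 h. The difference passed in 12 of 23, all positive, against 10.7% of all genes. Vcl had a log2 fold change of -0.12 at 96 h and 0.33 at 240 h (adjusted p of the difference = 8.12e-06). For p53 targets the difference passed in 12 of 34, all positive. At 96 h 3 of them rose and 6 fell, near the share of all genes called then. The median of that list moved little, from -0.01 at 96 h to 0.08 at 240 h. Lysosomal genes were alike at both times in their counts, with 32 rises at each, and the difference passed in 4 of 44, near the background. The interferon list had a median of 0.33 at 96 h and of -0.07 at 240 h. At 96 h 7 of 31 rose and none fell, near the share of all genes called then. Yet the difference passed in only 3 of 31 genes, also near the background. Col15a1 differed most among the genes that fell, with means of 10.4 and 8.30 CPM at 96 h and a difference of -1.90 (adjusted p = 2.26e-06). The count of 1510 was 586 when both 96 h cultures 6 and 7 of WM-2474 were left out, 838 after thinning, and 885, 724 and 867 without cultures 5, 6 and 7 in turn.

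**Figure D5:**
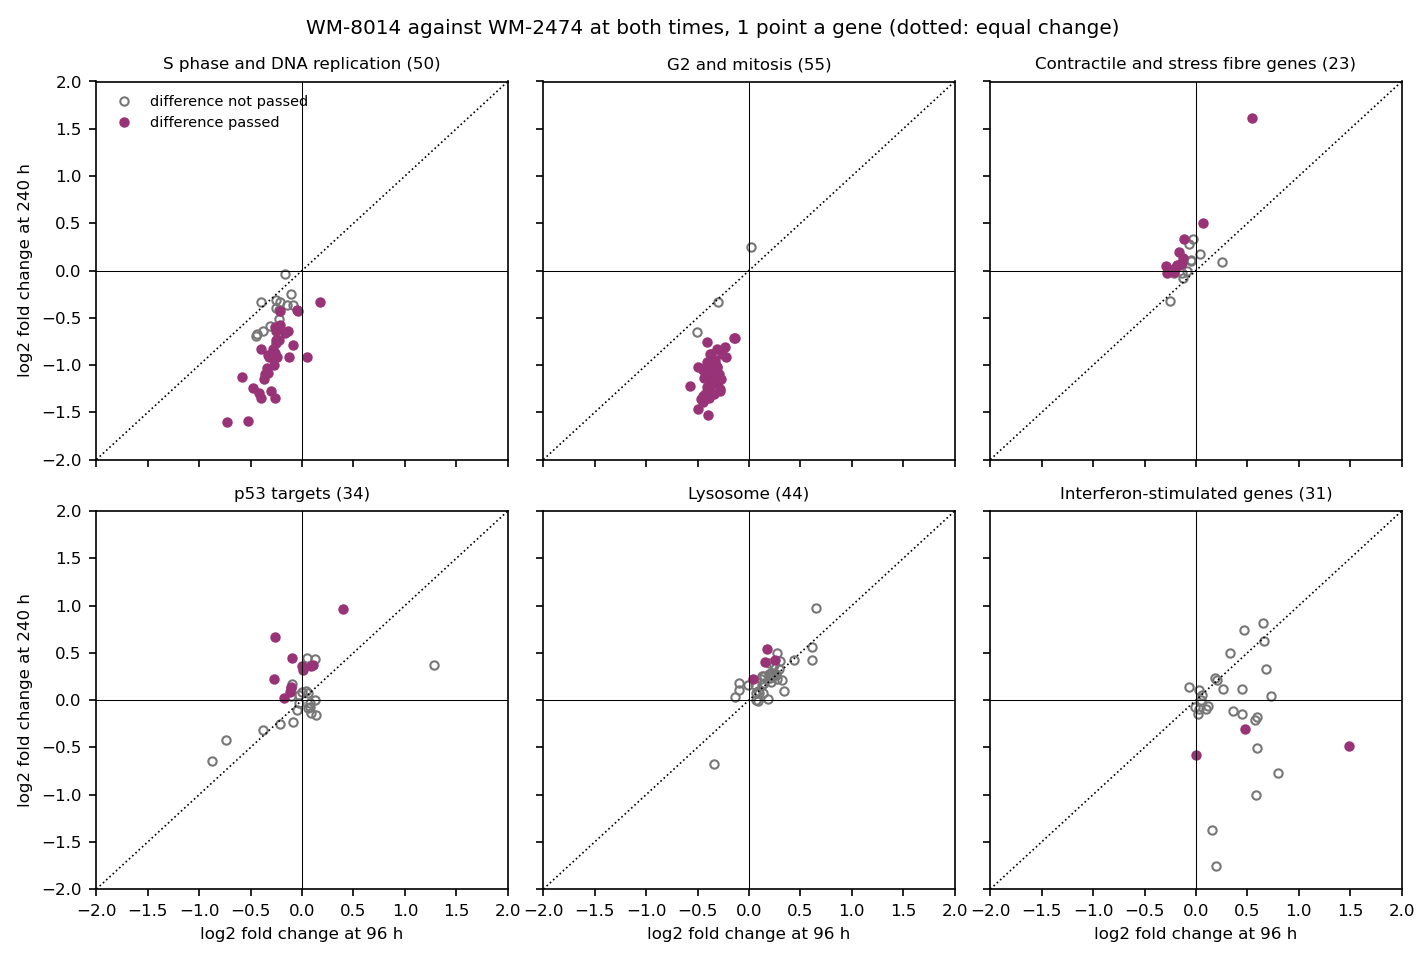
Log2 fold change of WM-8014 against WM-2474 at 96 h (x axis) and 240 h (y axis) for the genes of 6 lists, 1 point a gene, filled where the difference between the times passed (adjusted p under 0.05). The dotted line marks equal change, and the mitotic genes lie below it, with a median of -0.38 at 96 h and -1.12 at 240 h.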

How the data were processed

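Per the labels' protocols, total RNA was extracted with RNeasy columns and libraries were made with the TruSeq Stranded mRNA kit. Per the submitters' processing notes, the authors counted reads per gene with featureCounts on build mm10, and the deposited values are raw whole-number counts under Entrez gene IDs. For the aligner, annotation and strand setting nothing is stated in the labels or notes used here, and overlapping and antisense genes may share reads. Of 27179 genes 25275 (93%) took a symbol from the RefSeq table of GRCm38.p6, which also gave coordinates and promoter windows.

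Counts of all 12 libraries were fitted with edgeR 4.0.16 in R 4.3.3 (filterByExpr, TMM scaling, robust quasi-likelihood, 4 group means, no block), which left 14136 genes and at least 99.93% of the reads. The common biological coefficient of variation was 4.64%. P-values were adjusted over all genes by Benjamini-Hochberg (threshold 0.05), and ± after a log2 value is a standard error. A floor of 3 reads equals 0.0962 to 0.2814 CPM in the 240 h libraries, and intervals and floors cover counting error or the spread between these cultures only. No libraries looked like copies of each other. The fit was tested on simulated counts.

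The members and lists were chosen with earlier results of these data known. Genes named were 12 set by name, the 12 highest and 12 lowest fold changes that passed with a mean log2 CPM of at least 1 and the same direction in 3 cultures, the 8 most abundant with at least a 2-fold change, up to 4 per list by p, and, under the same conditions on level and direction, the 5 highest and 5 lowest differences between the times that passed. Other members are named as examples, and were chosen after their values were seen. Alternatives were DESeq2 1.42.0, other scaling and filters, thinning to 10147466 reads, a replicate block, the 240 h libraries alone, and leaving out libraries or cultures. Same-numbered cultures correlated at 0.109, 0.343 and 0.0435 in their deviations, and differently numbered ones at -0.283 to 0.151. The limit of 0.1 was not met in every same-numbered pair, so the cultures were not treated as paired in the main tests. The naming rule of the same direction in 3 cultures did set same-numbered cultures against each other. Whether same-numbered cultures share an embryo stays unknown.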

Additional observations from a re-analysis of the deposited data

Results flagged for a closer look

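The effect of WM-8014 differed between 240 h and 96 h, by edgeR's test of the difference itself, in 728 genes with a more positive and 782 with a more negative value at 240 h. Among the genes named by a fixed rule, the log2 difference was 0.55 for Cdkn2a, 0.56 for Cdkn2b and 0.26 for Cdkn1a, all kinase inhibitor genes, and 1.68 for Hoxc13. It was -0.88 for Cdc6, -0.57 for Ezh2, -0.88 for Melk, -0.98 for Lmnb1, -1.13 for Mki67 and -0.92 for Top2a, genes of replication, chromatin, the lamina and mitosis.

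Among genes with a mean log2 CPM of at least 1 at 240 h, a named symbol and the same direction in 3 cultures, the 5 most positive differences, Hoxc13 included, were found in Elobl (1.52), Ceacam1 (1.5), Axin2 (1.38) and Slc16a11 (1.36). Axin2, Slc16a11 and Elobl had log2 fold changes of -0.51, -0.50 and -0.94 at 96 h and of 0.87, 0.87 and 0.58 at 240 h, the last not passing at 240 h. The 5 most negative under the same conditions were Col15a1 (-1.90), Tenm4 (-1.65), Cldn1 (-1.59), Itih5 (-1.53) and Lrrn3 (-1.51). Cldn1, a tight junction gene, stood at 0.13 at 96 h and at -1.46 at 240 h. Under the alternatives the difference no longer passed in 13 settings for Elobl, 11 for Itih5, 6 for Cldn1, 4 for Ceacam1, 3 for Cdc6 and 1 for Cdkn1a.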

How the results depend on the processing

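The counts of 2996 genes higher and 3031 lower stayed within 1.5 times under all 17 alternatives. They were 2557 and 2582 under DESeq2, 2098 and 2124 after thinning, and, leaving out 1 library or culture, 2161 to 2795 and 2193 to 2994. With a replicate block they were 3154 and 3176 over all libraries, and 3025 and 3062 within 240 h. Within 240 h, Gas1 (adjusted p = 0.059) and Eln (0.0945) were among the genes that no longer passed. The 1510 genes whose effect differed between the times were 1275 under DESeq2, 1840 with the replicate block, 838 after thinning and 586 without both 96 h cultures 6 and 7 of WM-2474. They ranged from 724 to 1603 when 1 library or culture was left out, with 885, 724 and 867 for cultures 5, 6 and 7. Fewer reads or libraries entered these fits, and the cause was not tested further. The Kat6b difference between the times, which did not pass (log2 0.08), ranged from -0.00 to 0.14 over those fits, with its sign turned without culture 7 (adjusted p = 0.992). Of 171 named genes with a 240 h value, 170 passed, 160 of them in all 17 alternatives, and none changed sign. Most of them were named for a small p or a large fold in the main fit. Their stability was therefore partly fixed by that choice and says nothing of other genes. Of 1088 list counts 1020 stayed within 1.5 times.
Depth limits genes near 3 reads, such as Heyl and Hoxd13.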

Other observations

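Replication-dependent histone genes, looked at after their values were seen, were higher while the replication genes were lower. Of 62 genes of the H1, H2A, H2B, H3 and H4 clusters that were counted, 29 could be tested. Of these 21 rose, against 21.2% of all genes, none fell and 8 did not pass. The log2 fold changes ran from 0.18 to 1.35 with a median of 0.84. H2bc4 was read at 57.4, 62.7 and 64.4 CPM with WM-2474 and 109, 106 and 105 CPM with WM-8014 (edgeR adjusted p = 1.14e-10), and H3c14 at 11.5, 9.38 and 10 against 19.6, 18.9 and 19.1 CPM (adjusted p = 1.85e-08). The groups did not overlap in either gene. The replication-independent genes H1f0, H1f10 and H2az1, examples picked after their values were seen, fell by 0.94, 0.89 and 0.86 on the log2 scale. Other replication-independent histone genes were not counted as a family. Cluster genes have near-identical copies, and most of their transcripts lack a poly(A) tail, so poly(A) libraries hold few of them.

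A few genes of retinoid metabolism, picked after their values were seen and from no list, had these values. Dhrs3, which turns retinal back into retinol, rose from 19.8, 19.9 and 16.5 to 48.7, 44.6 and 45.3 CPM (adjusted p = 1.19e-06). Aldh1a7 and Aldh1a1, of the retinal dehydrogenase family, rose by 2.55 and 1.53 on the log2 scale at 3 CPM or less in most libraries, and the other 2 members tested did not pass. Rdh10, a retinol dehydrogenase gene, had a log2 fold change of 0.01 (adjusted p = 0.95), and Crabp1 fell by 1.42.

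Secreted and matrix genes outside the named rule included Timp3, which rose from 2461, 2521 and 2547 to 4260, 4510 and 4920 CPM (adjusted p = 2.47e-08), and Lrrc15, which fell from 399, 447 and 403 to 101, 101 and 128 CPM (adjusted p = 1.11e-06). Col18a1, a basement membrane collagen gene, fell by 1.77 on the log2 scale. Eln, encoding elastin, fell by 1.43 (adjusted p = 0.0161) and did not pass without culture 5 (0.192).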
